A study of Drosophila melanogaster with 42 samples.

Results

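A group of 116 transcripts, of 16637 measured, was bright in whole third-instar Drosophila melanogaster larvae and very dim in the dissected ring gland. The members were chosen by their values in the wild type: the log2 group mean in whole larva exceeded that in ring gland by at least 4.5 at each of 4, 8, 24 and 36 h into the third instar. They made up 0.697% of the transcripts. The choice used the 24 wild-type arrays, so every wild-type value is given as a description without a test. Tests were made only on the 18 arrays of driver-cross glands, which the choice did not use.

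The wild-type arrays held ring glands and whole larvae of w1118, a white-eyed laboratory strain, at the 4 times, with 3 arrays in each of 8 groups. The other 18 arrays held ring glands taken 18 or 8 h before puparium formation, with 3 arrays in each of 6 groups. These larvae carried phantom-Gal4, which drives transgenes in the prothoracic part of the gland, over w1118 in the controls, over RasV12 (an always active Ras) or over Torso-RNAi, so the controls carried the driver too. All larvae were kept dark at 25 °C and fed yeast paste. The labels give accelerated development for RasV12 and delayed development for Torso-RNAi, so genotype and age cannot be told apart at a matched time before puparium formation. For the 9 arrays at 8 h the sample titles give 18 h and the source descriptions 8 h. The titles also mark those 9 as partial clear gut and the 18 h arrays as blue gut, so the gut mark separates the same sets as the descriptions do. A separate stage tag divides them otherwise, with both control groups and RasV12 at 18 h in the middle of the instar and the other 3 groups late in it. The descriptions were followed, and every 8 h value rests on that choice.

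The ring gland lies around the aorta in front of the larval brain and joins the prothoracic gland, which makes ecdysone, to the corpora allata and the corpora cardiaca, which release juvenile hormone and adipokinetic hormone. Prothoracic cells receive the brain's prothoracicotropic hormone through the receptor Torso, which signals through Ras. The gland is a very small part of the larva, whose RNA comes mostly from larger organs such as fat body, gut, muscle, epidermis and salivary gland. In such bulk samples, fewer cells of a type and less RNA per cell cannot be told apart.

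The table names transcripts by FlyBase identifiers, and 0 of the 116 members could be paired with a gene through the RefSeq gene table at hand. No member is therefore given a gene name, a tissue or a function, tissue markers could not be read, and the organ label could not be checked against defining genes. Levels are RMA intensities on a linear scale. The lowest intensity of an array was 8.23 to 9.52 among the wild-type arrays and 1.83 to 2.06 among the driver crosses. These sets were taken as normalized apart, and no level is compared between them.

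In whole larva the members were among the brightest transcripts. Their median intensity on an array lay between 4762 and 6684, and the median member stood at percentile 87.2 to 90.8 of its array. Averaged over the 12 whole-larva arrays, 104 of the 116 lay above percentile 75 and 51 above percentile 90. FBtr0085512 had the highest level, at 32911 ± 4103 (SD, n = 12 arrays), followed by FBtr0085502 at 29117 ± 2420 (SD, n = 12). The lowest whole-larva group mean of any member was 522.1, and the median over all transcripts of a whole-larva array was 281.3 to 306.7.

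In wild-type ring gland the same transcripts sat low. Their median ran from 37.4 to 115 over the 12 arrays, and between 26 and 62 of them fell in the lowest 25% of an array. Set against the whole-larva level of the same time, the median member read 1.46% in gland at 4 h, 1.02% at 8 h, 1.33% at 24 h and 1.05% at 36 h. The share differed between members: at 4 h the quartiles were 0.73% and 2.43%, and the extremes 0.21% and 4.33%. RMA leaves a positive value for every transcript, so the smallest shares are bounded by the lowest intensities of an array. Across the 116 members the log2 gland level and the log2 whole-larva level had a Pearson's r between 0.50 and 0.65 over the 4 times, a description across transcripts that share arrays and are not independent. The members were chosen by these same values, and the rule caps the gland level by the larval level. A positive r is therefore partly built in.

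FBtr0075443 and FBtr0071542 had the largest mean differences as the intensities stand. In ring gland FBtr0075443 read 12.0 on the lowest array, 15.4 as the median and 22.6 on the highest of 12, with a mean of 16.3 ± 2.999 (SD). In whole larva it ran from 5021 to 9482 with a median of 7214. FBtr0071542 read 15658 ± 3968 (SD, n = 12) in whole larva. Its gland readings had a median of 33.8 and a highest value of 312.2, in replicate 2 at 4 h, an array that recurs in what follows. Gland readings this dim were not far above the lowest intensity of an array, so no fold is given and their order among the members is not settled.

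Members near the threshold differed less. FBtr0088195 was just inside, with a smallest log2 difference of 4.505 at 36 h, where whole larva read 962, 1141 and 1105 and ring gland 62.95, 33.3 and 49.4. FBtr0076067 was also just inside, at 4.53. Just outside were FBtr0077506 at 4.47 and FBtr0087972 at 4.46. FBtr0077506 read 10279 ± 961.1 in whole larva and 411.4 ± 333.3 in ring gland (SD, n = 12 each).

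**Figure D1:**
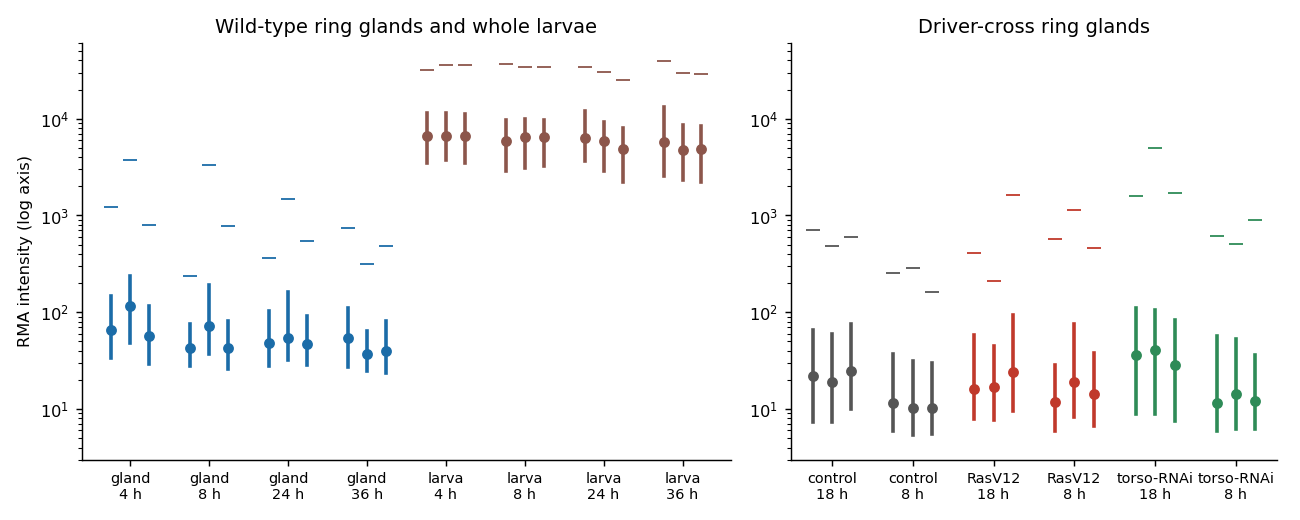
RMA intensity of the 116 members on each of the 42 arrays, on a log axis: points are the median over members, thick lines run from the lower to the upper quartile, and dashes mark the brightest member. Whole-larva medians lie between 4762 and 6684, wild-type gland medians between 37.4 and 115 and driver-cross gland medians between 10.2 and 40.8. The panels were taken as normalized apart, so levels are not compared between them.

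Most members held a high level in whole larva as it aged. Between 4 and 36 h the group mean of 31 members fell at least 2-fold, that of 8 rose at least 2-fold and that of 77 changed less. Over all transcripts 10.4% were lower and 12.5% higher by that much. The highest whole-larva mean was at 4 h for 57 members, at 8 h for 16, at 24 h for 14 and at 36 h for 29. In ring gland 39 of the 116 were at least 2-fold lower at 36 than at 4 h and 3 at least 2-fold higher, where over all transcripts 7.95% were lower and 5.59% higher. Part of these gland falls rested on 1 array, replicate 2 at 4 h, in which 79 of the 116 were highest of the 3 arrays. FBtr0078196 read 90.7, 2284 and 116 at 4 h and 36.9, 27.6 and 95.2 at 36 h. FBtr0077067 read 44.6, 1517 and 79.3 at 4 h and 78.4, 49.2 and 52.7 at 36 h. How many of the 39 would remain without that array was not counted, so the 39 are not read as a fall with age.

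Single gland arrays carried many members at once. A member was counted on an array where it read at least 4-fold above both other arrays of the group. In ring gland at 4 h, replicate 2 held 19 such members, or 16.4%, where 0.613% of all transcripts met the rule. At 8 h, replicate 2 held 13, or 11.2%, beside 0.577% of all transcripts. At 24 h replicate 2 held 4, beside 0.523%, and at 36 h replicate 1 held 6, beside 0.295%. Of the other 8 wild-type gland arrays, 6 held 0, replicate 1 at 4 h held 4 and replicate 3 at 36 h held 1.

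On the raised arrays some members reached a sizeable share of the larval level. The highest member stood at 34.1% of the whole-larva mean of its time in replicate 2 at 4 h, at 46.4% in replicate 2 at 8 h and at 40.3% in replicate 2 at 24 h. On the first array 9 members passed an intensity of 1000 and on the second 7, while on the other 10 wild-type gland arrays between 0 and 2 did. Of the 116, 79 were highest of the 3 arrays in replicate 2 at 4 h and 82 in replicate 2 at 8 h, where 29.6% and 28.6% of all transcripts were.

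The driver crosses held such arrays too. RasV12 replicate 3 at 18 h had 18 members, or 15.5%, at least 4-fold above both other arrays of its group, where 0.505% of all transcripts were. RasV12 replicate 2 at 8 h also had 18, beside 0.355% of all transcripts. Torso-RNAi replicate 1 had 8 at 18 h and 8 at 8 h, beside 0.216% and 0.631%, and torso-RNAi replicate 2 at 18 h had 7, beside 0.234%. Of all 84 transcripts so raised on the first RasV12 array, members made up 21.4%, and of all 59 on the second they made up 30.5%. The 6 control arrays held between 0 and 5 such members each.

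**Figure D2:**
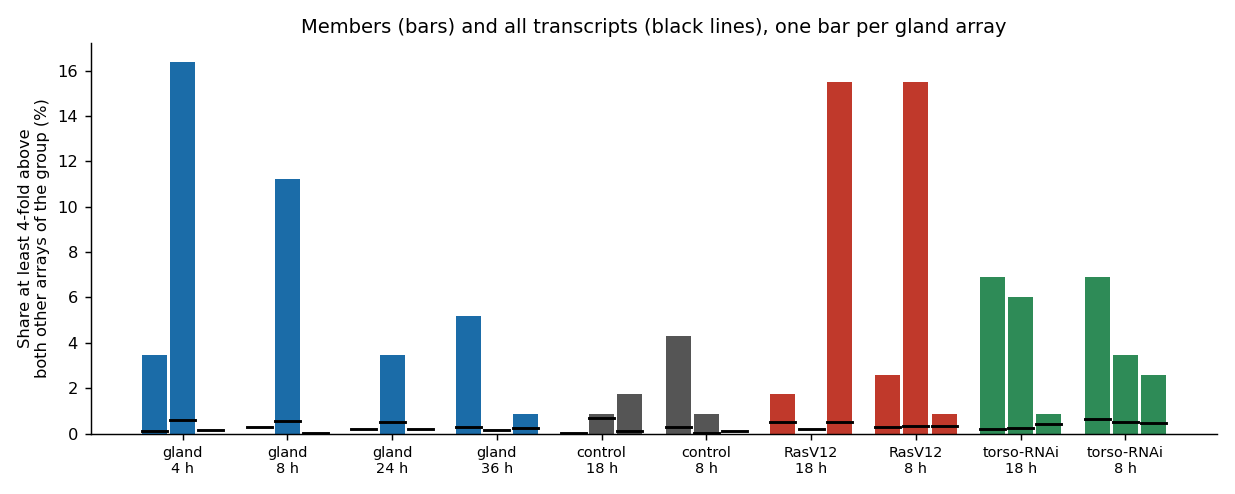
Share of the 116 members (bars) and of all 16637 transcripts (black lines), in percent, that read at least 4-fold above both other arrays of their group, for each gland array. Wild-type replicate 2 at 4 h (16.4%), RasV12 replicate 3 at 18 h and RasV12 replicate 2 at 8 h (15.5% each) and wild-type replicate 2 at 8 h (11.2%) stand highest.

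The raised arrays did not all raise the same members. The RasV12 arrays shared 12, which is 66.7% of each list of 18. Of the 19 members raised in wild-type replicate 2 at 4 h, 7 were also raised in RasV12 replicate 3 at 18 h (36.8% and 38.9% of the lists) and 8 in RasV12 replicate 2 at 8 h (42.1% and 44.4%). Torso-RNAi replicate 1 at 18 h and at 8 h shared 7 members, 87.5% of each list of 8. Each of these torso-RNAi lists shared 0 members with RasV12 replicate 3 at 18 h and 1 with RasV12 replicate 2 at 8 h. The 13 members of wild-type replicate 2 at 8 h shared 0 with wild-type replicate 2 at 4 h and 1 and 2 with the RasV12 arrays. They shared 0 with the torso-RNAi arrays numbered 1. The list of torso-RNAi replicate 2 at 18 h was not set against the others as a whole. FBtr0077930, FBtr0083163, FBtr0086811 and FBtr0086812 met the 4-fold rule both there and in wild-type replicate 2 at 8 h. FBtr0086812 read 83.0, 2333 and 94.9 in wild-type gland at 8 h and 148, 4521 and 211 in torso-RNAi glands at 18 h. These lists were drawn from the values they describe, so none was tested.

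The 12 members shared by the RasV12 arrays were very bright in whole larva, with a median over the 12 between 14311 and 25315 on an array. In RasV12 glands their median was 20.8, 22.9 and 415.7 in replicates 1, 2 and 3 at 18 h and 11.1, 222.2 and 16.2 at 8 h. In control glands it was 134.2, 77.8 and 103 at 18 h and 16.7, 22.2 and 17.7 at 8 h. The 18 h controls thus lay between the raised RasV12 array and the other RasV12 arrays of their time, and above all 8 h controls. In wild-type gland the median was 362.4 in replicate 2 at 4 h and 57.8 to 99.7 on the other 11 arrays.

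FBtr0077042 had the largest rise of the 12. It read 43.1, 48.9 and 1617 in RasV12 glands at 18 h and 18.5, 523 and 45.02 at 8 h, and 131, 73.8 and 99.7 in controls at 18 h and 42.00, 39.98 and 32.01 at 8 h. FBtr0077067 read 13.7, 12.1 and 292 in RasV12 glands at 18 h, 9.55, 217 and 14.2 at 8 h and 44.6, 1517 and 79.3 in wild-type gland at 4 h. Both were picked after their values were seen, and each raised group mean rests on 1 array of 3.

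The 7 members shared by the torso-RNAi arrays numbered 1 had another distribution over the glands. Their median was 500.1, 18.7 and 12.7 in torso-RNAi replicates 1, 2 and 3 at 18 h and 239.3, 16.9 and 12.0 at 8 h. In wild-type gland it was 492.1, 103.1 and 142 at 4 h and 51.1, 108.3 and 38.2 at 24 h. Among controls it was 7.30, 5.16 and 66.5 at 18 h and 28.7, 4.79 and 6.03 at 8 h, and in RasV12 glands 6.28, 28.3 and 6.35 at 18 h and 73.9, 76.6 and 10.9 at 8 h. Every driver-cross group thus held at least 1 array in which this median was over 4 times that of another.

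FBtr0076067, with the largest rise of the 7, read 700.2, 21.98 and 6.88 in torso-RNAi glands at 18 h and 271, 7.29 and 21.7 at 8 h. FBtr0085472 read 1598, 25.7 and 18.6 at 18 h, 239, 55.7 and 11.99 at 8 h and 1233, 163 and 219 in wild-type gland at 4 h. FBtr0089323, also of the 7, had the widest spread between arrays of a group, an SD of 2.56 on the log2 scale over the driver-cross groups, with a median of 14.8 and a highest reading of 618.4.

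**Figure D3:**
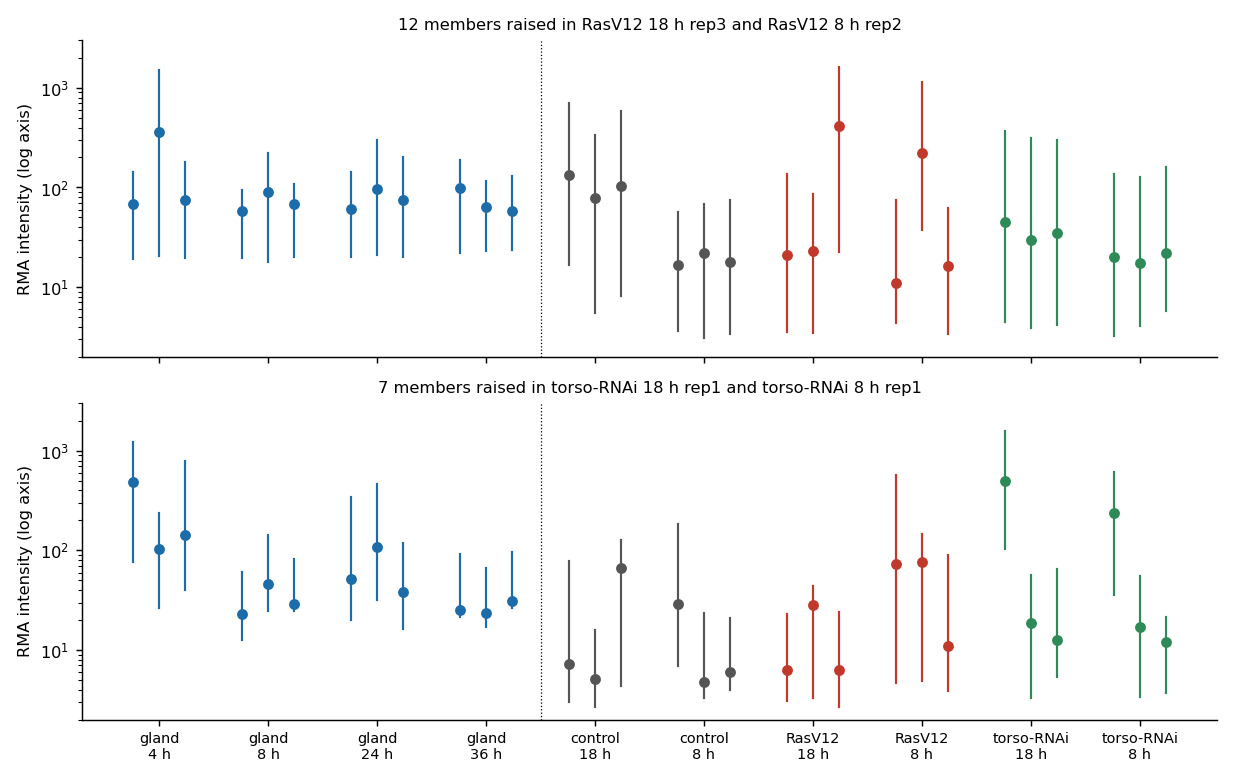
RMA intensity, on a log axis, of the 12 members raised in both high RasV12 arrays and of the 7 raised in both torso-RNAi arrays numbered 1, on each gland array: points are the median over these members and lines run from the lowest to the highest. The set of 12 is also high in wild-type replicate 2 at 4 h (median 362.4) and the set of 7 in wild-type replicate 1 at 4 h (median 492.1). The wild-type and driver-cross arrays were taken as normalized apart.

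Across the driver-cross glands the members were dim in every group. Their median on an array ran from 19.0 to 24.6 in controls at 18 h, from 15.98 to 24.1 in RasV12 and from 28.3 to 40.8 in torso-RNAi. At 8 h it ran from 10.2 to 11.6 in controls, from 11.7 to 19.2 in RasV12 and from 11.5 to 14.4 in torso-RNAi. All 3 torso-RNAi arrays at 18 h lay above the other 15 arrays. Between 49 and 77 of the 116 fell in the lowest 25% of an array. The highest of the 18 readings was under 100 for 50 members, from 100 to under 1000 for 57 and at least 1000 for 9. The SD between arrays of a group, on the log2 scale, had a median of 0.74 over the members and 0.22 over all transcripts.

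The driver-cross arrays were fitted together with limma, and 2-sided p-values were adjusted over all 16637 transcripts by the Benjamini-Hochberg method. A member was called at an adjusted p under 0.05. The labels call the arrays biological replicates. Many readings lay near the lowest intensities of an array, where the size of a log2 change is not well measured. With 16 added to each intensity before log2, all 36 changes chosen by the naming rule were smaller. For 32 of them the fold on the linear scale shrank by over 1.5 times, and 2 lost their call. The log2 change so obtained is printed as the pseudocount value beside each change whose fold moved by over 1.5 times or whose call ended. The comparisons with control share the control arrays of their time, and each is read on its own. Leaving out an array also changes the share of all transcripts called. Leave-one-out counts given without that share therefore do not show that members are less steady than other transcripts.

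RasV12 glands were compared with controls to see which transcripts change when Ras is kept active in the gland. At 18 h, 10 members were higher and 7 lower, 8.62% and 6.03% of the 116, where 22.8% and 21.7% of all transcripts were. The median log2 change was -0.04 over members and 0.06 over all transcripts. At 8 h, 17 were higher and 7 lower, 14.7% and 6.03%, where 20% and 22.3% of all transcripts were, with medians of 0.37 and 0.01. In both directions and at both times the share of members called was below that of all transcripts at this cut, which sets no minimum size. Without both high RasV12 arrays, a choice made after seeing the data, 19 members, or 16.4%, were called lower at 18 h, where 18.1% of all transcripts were in that fit. Those arrays were picked by the members raised on them, so a lower RasV12 mean of such members is built into that count. The higher count at 18 h was 6 without RasV12 replicate 2 or with the compared groups alone, and the lower count 4 without that array or without control replicate 3. At 8 h the higher count was 11 without control replicate 2. The lower count at 8 h was 4 without control replicate 1 or 2, 2 without RasV12 replicate 1 and 3 without RasV12 replicate 3. With a 2-fold minimum and all arrays, 6 of the 116 were higher and 6 lower at 18 h, beside 815 and 1521 of all 16637 transcripts. At 8 h those counts were 13 and 5, beside 809 and 1430. The order of the shares thus depends on the cut.

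FBtr0071543 had the largest rise in RasV12 glands at both times. At 18 h it read 169, 209 and 675 in RasV12 glands and 51.1, 11.2 and 19.3 in controls. At 8 h it read 72.5, 362 and 358 and 5.84, 4.42 and 6.59. The groups did not overlap at either time. The rise was 3.69 ± 0.69 (log2 ± SE, limma adjusted p = 0.000643, pseudocount value 2.93) at 18 h, 3.08 without RasV12 replicate 3 and 4.29 without control replicate 1. At 8 h it was 5.25 ± 0.69 (log2 ± SE, limma adjusted p = 4.09e-05, pseudocount value 3.43), or 6.02 without RasV12 replicate 1. Torso-RNAi glands read 8.92, 10.04 and 5.93 at 18 h and 8.81, 5.08 and 12.3 at 8 h.

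FBtr0070100 had the next largest rise at 18 h, and 1 array carried its size. RasV12 glands read 20.7, 6.11 and 191 and controls 4.11, 4.51 and 3.93. The change was 2.79 ± 0.83 (log2 ± SE, limma adjusted p = 0.0141, pseudocount value 1.45), 1.43 without RasV12 replicate 3 and 3.91 without RasV12 replicate 2. It was not called when only the compared groups were fitted (adjusted p = 0.13). At 8 h FBtr0083157 came second, at 48.4, 76.3 and 75.6 in RasV12 glands and 4.58, 10.6 and 6.22 in controls, which did not overlap. Its change was 3.28 ± 0.31 (log2 ± SE, limma adjusted p = 2.67e-06, pseudocount value 1.83). FBtr0083157 was also higher than control in torso-RNAi glands at both times. Those changes were 1.83 ± 0.31 (log2 ± SE, limma adjusted p = 0.0003) at 18 h and 2.14 ± 0.31 (log2 ± SE, limma adjusted p = 9.3e-05) at 8 h.

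Other members were lower in RasV12 glands. At 18 h FBtr0086523 read 3.67, 4.37 and 7.24 against 28.6, 26.3 and 31.6 in controls, a change of -2.56 ± 0.35 (log2 ± SE, limma adjusted p = 5.5e-05, pseudocount value -1.09). FBtr0083756 read 3.13, 3.48 and 2.99 against 14.4, 18.1 and 20.6, a change of -2.46 ± 0.20 (log2 ± SE, limma adjusted p = 7.6e-07, pseudocount value -0.81). In RasV12 glands both lay near the lowest intensities of an array, so their direction was measured better than their size. At 8 h FBtr0077587 fell most, at 3.19, 41.1 and 3.98 against 89.03, 173 and 99.2, a change of -3.84 ± 1.15 (log2 ± SE, limma adjusted p = 0.015, pseudocount value -2.24). FBtr0071778 read 5.62, 12.2 and 7.90 against 26.1, 104 and 66.9, a change of -2.80 ± 0.83 (log2 ± SE, limma adjusted p = 0.0142, pseudocount value -1.62).

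Both 8 h falls depended on single arrays. The call of FBtr0077587 was lost without control replicate 2, RasV12 replicate 1 or RasV12 replicate 3 (adjusted p = 0.0525, 0.0674 and 0.0581 by limma). Its log2 change was -3.17 without RasV12 replicate 1 and -5.01 without RasV12 replicate 2. The call of FBtr0071778 was lost without control replicate 2 or RasV12 replicate 1 (adjusted p = 0.0631 and 0.0525).

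Torso-RNAi glands were compared with the same controls to see which transcripts change when the receptor is targeted. At 18 h, 22 members were higher and 4 lower, 19% and 3.45%, where 18.5% and 22.6% of all transcripts were. The share called higher was near that of all transcripts at this cut, which sets no minimum size. The median log2 change was 0.27 over members and -0.02 over all transcripts. The higher count was 9 without torso-RNAi replicate 2, 11 without control replicate 1 and 13 without control replicate 3, and the lower count 2 without torso-RNAi replicate 3. In the first 3 of these fits 15.5%, 15.8% and 16.2% of all transcripts were called higher. The lower count was 13, or 11.2%, with the compared groups alone and 15, or 12.9%, with array weights, where 23.5% and 27.3% of all transcripts were called lower. At 8 h, 11 members were higher and 4 lower, 9.48% and 3.45%, where 15.5% and 23.6% of all transcripts were, with medians of 0.13 and -0.06. The lower count at 8 h was 2 without control replicate 2 or torso-RNAi replicate 3 and 8 without torso-RNAi replicate 2. With a 2-fold minimum and all arrays, 21 of the 116 were higher and 3 lower at 18 h, beside 1030 and 1043 of all 16637 transcripts. At 8 h those counts were 10 and 3, beside 789 and 1097. How the share of members called higher stands to that of all transcripts thus depends on the cut.

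FBtr0086729 rose most in torso-RNAi glands at 18 h, unevenly, at 761, 298 and 33.5 against 5.26, 17.3 and 5.69 in controls. Its change was 4.61 ± 1.43 (log2 ± SE, limma adjusted p = 0.0186, pseudocount value 3.21), 3.64 without torso-RNAi replicate 1 and 5.89 without torso-RNAi replicate 3. The call was lost without control replicate 1 or 3 or torso-RNAi replicate 1 or 2 (adjusted p = 0.0588, 0.0564, 0.0873 and 0.0594 by limma). FBtr0089630 read 134, 104 and 295 against 5.83, 35.2 and 6.11, without overlap. Its change was 3.90 ± 0.70 (log2 ± SE, limma adjusted p = 0.000516, pseudocount value 2.61), or 4.75 without control replicate 2.

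Among the falls at 18 h, FBtr0078196 read 85.2, 148 and 39.1 in torso-RNAi glands against 496, 481 and 401 in controls, a change of -2.53 ± 0.81 (log2 ± SE, limma adjusted p = 0.0215). The call was lost without control replicate 1 or 2 or torso-RNAi replicate 3 (adjusted p = 0.0562, 0.0539 and 0.093 by limma). FBtr0083756 read 3.79, 2.997 and 3.85 against the control values given above, a change of -2.31 ± 0.20 (log2 ± SE, limma adjusted p = 1.28e-06, pseudocount value -0.78). Its size is not settled either, since it was near the lowest intensities in both altered genotypes at 18 h, and also in controls at 8 h, where it read 2.60, 3.62 and 2.88.

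At 8 h the largest rise in torso-RNAi glands was that of FBtr0088748, at 381, 122 and 624 against 47.8, 51.2 and 21.1 in controls. The change was 3.04 ± 0.57 (log2 ± SE, limma adjusted p = 0.000767), or 3.71 without torso-RNAi replicate 2. FBtr0074824 read 128, 17.1 and 42.2 against 7.07, 6.23 and 7.50. Its change of 2.71 ± 0.63 (log2 ± SE, limma adjusted p = 0.0034, pseudocount value 1.51) was 1.96 without torso-RNAi replicate 1 and 3.41 without torso-RNAi replicate 2.

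The largest fall called at 8 h was that of FBtr0071778, whose groups overlapped, at 3.58, 30.4 and 6.76 against 26.1, 104 and 66.9 in controls, a change of -2.65 ± 0.83 (log2 ± SE, limma adjusted p = 0.0205). Among called falls whose groups did not overlap, the largest were at dim readings. FBtr0100030 read 6.44, 5.78 and 2.90 against 9.65, 12.2 and 14.4, a change of -1.33 ± 0.32 (log2 ± SE, limma adjusted p = 0.00432, pseudocount value -0.42). FBtr0078098 read 13.5, 9.92 and 8.88 against 29.2, 28.8 and 17.1, a change of -1.20 ± 0.44 (log2 ± SE, limma adjusted p = 0.044, pseudocount value -0.60). The call of FBtr0078098 was lost under a second quantile normalization, with centred arrays and with a replicate block (adjusted p = 0.0783, 0.0535 and 0.0652 by limma). It was also lost without control replicate 1 or 2 or torso-RNAi replicate 2 or 3 (adjusted p = 0.127, 0.127, 0.0931 and 0.126).

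**Figure D4:**
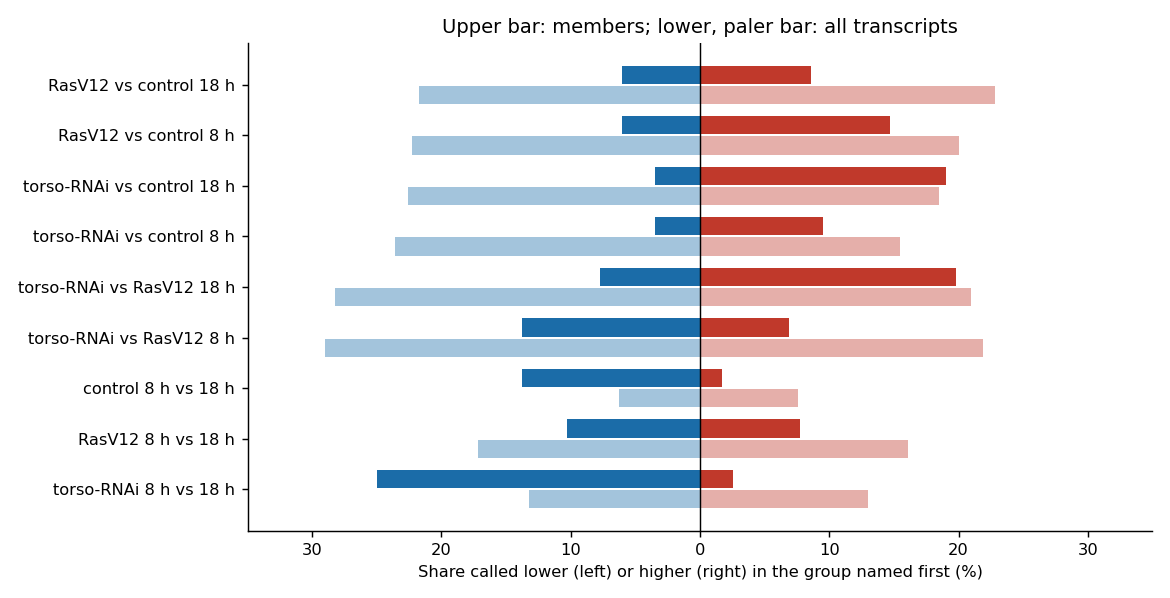
Share, in percent, of the 116 members (upper, darker bars) and of all 16637 transcripts (lower, paler bars) called higher (to the right) or lower (to the left) in the group named first, at an adjusted p under 0.05, in 9 comparisons of driver-cross glands. Members exceed all transcripts in the falls from 18 to 8 h in torso-RNAi (25% against 13.2%) and control glands (13.8% against 6.25%).

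Torso-RNAi and RasV12 glands were also compared directly. At 18 h, 23 members were higher in torso-RNAi and 9 lower, 19.8% and 7.76%, where 21% and 28.2% of all transcripts were. At 8 h the counts were 8 and 16, 6.9% and 13.8%, where 21.9% and 29% of all transcripts were. The median log2 difference was 0.26 over members and -0.11 over all transcripts at 18 h, and -0.07 and -0.10 at 8 h. With each array centred, the medians over all transcripts became -0.02 at both times and that of the members at 8 h turned to 0.02. At 18 h the counts were 13 higher and 4 lower without RasV12 replicate 2. The higher count was 15 without torso-RNAi replicate 2, and the lower count 4 without RasV12 replicate 3 or torso-RNAi replicate 1 and 3 without torso-RNAi replicate 3. At 8 h the higher count was 4 without RasV12 replicate 1.

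FBtr0086523 separated the genotypes at 18 h with little spread, at 74.6, 77.2 and 106 in torso-RNAi and 3.67, 4.37 and 7.24 in RasV12. The difference was 4.12 ± 0.35 (log2 ± SE, limma adjusted p = 5.44e-07, pseudocount value 2.27). The controls lay between them, and FBtr0086523 was called in torso-RNAi against control too, at 1.56 ± 0.35 (log2 ± SE, limma adjusted p = 0.00264). FBtr0079607 had the largest difference towards torso-RNAi at 18 h, at 168, 104 and 369.8 against 14.4, 6.45 and 4.76, or 4.61 ± 1.19 (log2 ± SE, limma adjusted p = 0.00531, pseudocount value 3.08).

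FBtr0071543 had the largest difference in either direction and was lower in torso-RNAi than in RasV12 glands, at -5.15 ± 0.69 (log2 ± SE, limma adjusted p = 3.13e-05, pseudocount value -3.66) at 18 h and -4.69 ± 0.69 (log2 ± SE, limma adjusted p = 6.61e-05, pseudocount value -3.24) at 8 h. Those differences were -4.54 without RasV12 replicate 3 at 18 h and -5.46 without RasV12 replicate 1 at 8 h. FBtr0100030 was lower in torso-RNAi at both times, at 2.61, 2.58 and 2.92 against 3.996, 9.23 and 9.23 at 18 h and 6.44, 5.78 and 2.90 against 67.2, 81.4 and 74.8 at 8 h. Its differences were -1.37 ± 0.32 (log2 ± SE, limma adjusted p = 0.00252, pseudocount value -0.32) and -3.96 ± 0.32 (log2 ± SE, limma adjusted p = 3.15e-07, pseudocount value -2.11).

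At 8 h FBtr0088748 was higher in torso-RNAi glands, whose readings are given above, than in RasV12 glands, which read 11.4, 14.5 and 18.6. The difference was 4.40 ± 0.57 (log2 ± SE, limma adjusted p = 2.15e-05, pseudocount value 3.41), or 5.07 without torso-RNAi replicate 2. FBtr0078196 read 382, 222 and 592 against 5.08, 50.9 and 24.4, so the groups were far apart. Its difference of 4.32 ± 0.81 (log2 ± SE, limma adjusted p = 0.000493, pseudocount value 3.33) was 3.39 without RasV12 replicate 1 and 5.05 without RasV12 replicate 2.

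Between the times before puparium formation, members fell more often than they rose in torso-RNAi and control glands. In torso-RNAi glands 29 of the 116 were lower at 8 than at 18 h and 3 higher, 25% and 2.59%, where 13.2% and 13% of all transcripts were. In control glands 16 were lower and 2 higher, 13.8% and 1.72%, where 6.25% and 7.6% of all transcripts were. In RasV12 glands 12 were lower and 9 higher, 10.3% and 7.76%, where 17.2% and 16.1% of all transcripts were. With 1 array left out these were 5 to 15 and 5 to 8, so their order was not settled. With a 2-fold minimum and all arrays they were 12 and 7, beside 854 and 856 of all 16637 transcripts. The median log2 change over members was -0.59 in torso-RNAi, -0.53 in control and -0.24 in RasV12 glands, beside 0.01, 0.04 and 0.01 over all transcripts. The torso-RNAi count of falls was 20 to 26 with any 1 array left out.

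The control and RasV12 counts were less steady. The falls in control glands numbered 7 without control replicate 1 or 3 at 18 h, and 8, 5 and 9 without control replicates 1, 2 and 3 at 8 h. Those 5 counts are 4.31% to 7.76% of the members, where 3.54% to 5.34% of all transcripts fell in the same fits. The falls numbered 31, or 26.7%, with array weights and 28, or 24.1%, with the compared groups alone, where 11.6% and 6.54% of all transcripts fell. The 2 rises became 1 without control replicate 2 or 3 at 18 h or control replicate 2 at 8 h. In RasV12 glands the falls numbered 7 without replicate 1 or 3 at 18 h and 5 without replicate 1 or 3 at 8 h, and the rises 5 without replicate 1 at 18 h or replicate 2 at 8 h. Without both high RasV12 arrays, which were picked by the members raised on them, 4 members, or 3.45%, rose, where 10.7% of all transcripts did.

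FBtr0072968 fell most in torso-RNAi glands, from 185, 403 and 959 at 18 h to 11.7, 27.6 and 8.09 at 8 h. The change was -4.91 ± 0.77 (log2 ± SE, limma adjusted p = 0.000418, pseudocount value -3.82), or -4.31 without torso-RNAi replicate 3 at 18 h. In controls it went from 98.5, 230.0 and 27.8 to 32.2, 14.2 and 48.4, where the groups overlapped. FBtr0071778 fell in torso-RNAi glands from 91.3, 232 and 491 to 3.58, 30.4 and 6.76, a change of -4.60 ± 0.83 (log2 ± SE, limma adjusted p = 0.0011, pseudocount value -3.12). That change was -5.22 without replicate 1 at 18 h, and -3.93 and -5.47 without replicates 1 and 2 at 8 h.

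The 3 rises called in torso-RNAi glands were smaller than those falls. FBtr0088748 rose most, from 187, 89.05 and 51.3 to 381, 122 and 624, groups that overlapped, a change of 1.69 ± 0.57 (log2 ± SE, limma adjusted p = 0.0425). FBtr0075824 went from 5.62, 6.49 and 6.29 to 12.8, 9.62 and 23.3, a change of 1.22 ± 0.35 (log2 ± SE, limma adjusted p = 0.0209, pseudocount value 0.47). Its call was lost without replicate 1 at 18 h or replicate 3 at 8 h and with the compared groups alone (adjusted p = 0.067, 0.093 and 0.0671 by limma). FBtr0082057 went from 45.8, 42.02 and 50.3 to 75.2, 105 and 98.4, a change of 1.00 ± 0.14 (log2 ± SE, limma adjusted p = 0.000223).

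In control glands FBtr0076608 fell most, from 137, 78.03 and 149.5 to 8.66, 8.07 and 12.3, a change of -3.62 ± 1.02 (log2 ± SE, limma adjusted p = 0.0305, pseudocount value -2.38). The control groups were far apart, while RasV12 glands were uneven, at 17.3, 21.2 and 380.4 at 18 h and 10.4, 126 and 14.7 at 8 h, and all 18 arrays share 1 estimate of the spread. The call was lost with the pseudocount (adjusted p = 0.0527 by limma) and when any 1 of the 6 control arrays was left out (adjusted p from 0.0541 to 0.094 by limma). FBtr0085511 fell from 315, 156 and 257 to 33.2, 28.02 and 18.4, a change of -3.17 ± 0.82 (log2 ± SE, limma adjusted p = 0.02, pseudocount value -2.57). That call was lost without control replicate 1 or 3 at 18 h or replicate 2 or 3 at 8 h (adjusted p from 0.0549 to 0.0738 by limma).

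The rises in control glands began near the lowest intensities. FBtr0100030 went from 2.99, 3.52 and 3.35 to 9.65, 12.2 and 14.4, a change of 1.86 ± 0.32 (log2 ± SE, limma adjusted p = 0.00238, pseudocount value 0.54). FBtr0113016 went from 4.16, 3.46 and 3.70 to 4.63, 7.09 and 5.51, a change of 0.59 ± 0.16 (log2 ± SE, limma adjusted p = 0.0244, pseudocount value 0.14). The call of FBtr0113016 was lost without control replicate 2 or 3 at 18 h or replicate 2 at 8 h, with the compared groups alone and with a pseudocount of 16 (adjusted p from 0.0627 to 0.112 by limma).

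In RasV12 glands FBtr0100030 rose from 3.996, 9.23 and 9.23 at 18 h to 67.2, 81.4 and 74.8 at 8 h, a change of 3.41 ± 0.32 (log2 ± SE, limma adjusted p = 6.25e-06, pseudocount value 1.95). FBtr0075853 rose from 7.43, 8.41 and 4.86 to 140.0, 149 and 35.2, a change of 3.75 ± 1.07 (log2 ± SE, limma adjusted p = 0.0152, pseudocount value 2.26), or 4.42 without replicate 3 at 8 h. Its call was lost without RasV12 replicate 3 at 18 h or replicate 1 or 2 at 8 h (adjusted p = 0.0519, 0.0552 and 0.056 by limma).

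FBtr0077587 fell most in RasV12 glands, from 413, 126 and 204 at 18 h to 3.19, 41.1 and 3.98 at 8 h. Its change of -4.77 ± 1.15 (log2 ± SE, limma adjusted p = 0.00542, pseudocount value -3.08) was -4.10 without replicate 1 and -5.94 without replicate 2 at 8 h. FBtr0077930 fell from 170.2, 64.2 and 565 to 5.44, 9.94 and 7.18. Its change of -4.65 ± 1.02 (log2 ± SE, limma adjusted p = 0.00309, pseudocount value -3.13) was -5.41 without replicate 2 and -3.84 without replicate 3 at 18 h.

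Whether the genotype effect differed between the times was tested in the same fit, as the effect at 8 h minus that at 18 h. For RasV12, 3 members were called higher and 0 lower, where 2.79% and 4.69% of all transcripts were, and at an unadjusted p under 0.05 the counts were 13 and 4. The count of 3 was 10, or 8.62%, without RasV12 replicate 3 at 18 h, where 1.86% of all transcripts were called higher, and the count of 0 was 1 without RasV12 replicate 2 at 18 h. Among the 3, FBtr0083157 had the largest difference, at 4.82 ± 0.43 (log2 ± SE, limma adjusted p = 9.44e-05, pseudocount value 2.50). It read 11.1, 7.55 and 5.19 in RasV12 glands at 18 h against 19.9, 27.3 and 19.6 in controls, so all 3 RasV12 arrays were below the controls, and 48.4, 76.3 and 75.6 at 8 h against 4.58, 10.6 and 6.22, so all 3 were above. For torso-RNAi, 1 member was called higher and 2 lower, where 1.34% and 1.66% of all transcripts were. The count of 2 was between 0 and 4 with 1 array left out, and the count of 1 was 2 without torso-RNAi replicate 1 or 2 at 8 h. The 1 called higher was FBtr0083756. Its torso-RNAi values were 3.79, 2.997 and 3.85 at 18 h and 3.46, 4.94 and 3.31 at 8 h. Thus 3 of the 4 groups in this difference, the 8 h controls included, read near the lowest intensities. The size of the difference, printed further below, is therefore not settled. Both genotypes were set against the same control arrays.

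FBtr0082027 kept the highest level of the members in driver-cross glands, with a median of 263.7 over the 18 arrays and a lowest reading of 127.7. It read 152, 246 and 128 in controls at 18 h and 157, 151 and 163 at 8 h. In RasV12 glands it read 169.9, 196 and 198 at 18 h and 326, 442 and 466 at 8 h, and in torso-RNAi glands 341, 403 and 282 and 425, 287 and 754. FBtr0082027 was higher than control in torso-RNAi glands by 1.01 ± 0.30 (log2 ± SE, limma adjusted p = 0.0148) at 18 h and 1.53 ± 0.30 (log2 ± SE, limma adjusted p = 0.00107) at 8 h. In RasV12 glands it was higher at 8 h, a change of 1.38 ± 0.30 (log2 ± SE, limma adjusted p = 0.00212), and not called at 18 h, at 0.16 ± 0.30 (log2 ± SE, limma adjusted p = 0.7). FBtr0078196 had the next highest median, 151.7.

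**Figure D5:**
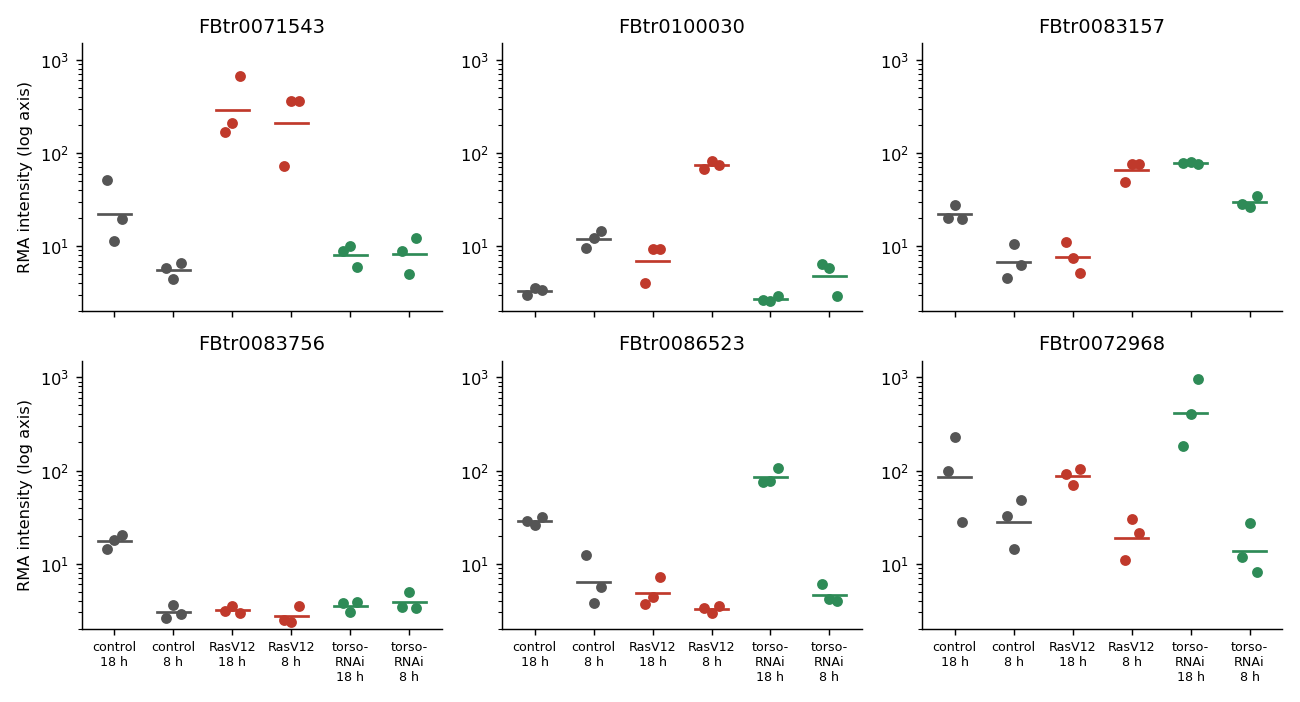
RMA intensity, on a log axis, of 6 members in the 6 driver-cross groups, picked after their values were seen among those named above: points are arrays and lines are geometric means. FBtr0071543 and, at 8 h, FBtr0100030 are high in RasV12 glands. FBtr0083157 is higher than in control glands in RasV12 at 8 h and in torso-RNAi at both times. FBtr0083756 is highest in controls at 18 h, and FBtr0086523 and FBtr0072968 are highest in torso-RNAi at 18 h.

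A milder form of the same wild-type difference was set beside the members. In 839 transcripts the smallest of the 4 log2 differences between whole larva and ring gland was at least 2 but under 4.5. In torso-RNAi against control at 18 h, 36.4% of these were higher and 3.22% lower, beside 19% and 3.45% of the members, with a median log2 change of 0.90 beside 0.27. Between 18 and 8 h, 39.6% of them fell in torso-RNAi glands, beside 25% of the members, and 20.4% in control glands, beside 13.8%. In RasV12 against control at 18 h, 20.5% were lower, beside 6.03% of the members. The milder set was brighter in the glands, with array medians of 144.7 to 162 in torso-RNAi at 18 h, where those of the members were 28.3 to 40.8. The difference between the sets, and the part of this level difference in it, was not tested.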

How the data were processed

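Total RNA of ring glands and whole larvae was labelled with Cy3 and read on one-colour NimbleGen arrays, per the labels. The deposited values are intensities on a linear scale; per the submitters' processing notes, the authors used RMA. Which version, background correction, probe annotation and slides were used is not given in the sources used here. Precision is limited by the number of arrays.

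Intensities were converted to log2, with no pseudocount added. The 18 driver-cross arrays went into 1 limma fit (version 3.58.1, R 4.3.3) of group means, with 12 residual degrees of freedom and empirical Bayes moderation. Adjustment ran over 16637 transcripts within each of 11 contrasts. Simulated data with known changes were used to test the calls. Named are the 2 largest rises and falls of each comparison among called members whose groups did not overlap, and the members that were extreme in the wild-type difference, larval level, driver-cross level or spread, or nearest the threshold. Changes with overlapping groups (FBtr0071778 in torso-RNAi against control at 8 h and FBtr0088748 in torso-RNAi from 18 to 8 h) and the called differences between times were named after their values were seen. The members, lists and rules were chosen with earlier results of these data known. Alternatives changed scaling, filters, moderation, weights, samples fitted, pairing, pseudocount, call rule, arrays kept and member threshold.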

Additional observations from a re-analysis of the deposited data

Results flagged for a closer look

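The difference between the genotype effect at 8 h and at 18 h was tested in the same limma fit. For RasV12 it was called for 3 members higher at 8 h and 0 lower, where 2.79% and 4.69% of all transcripts were (13 and 4 members at an unadjusted p under 0.05). These were FBtr0083157 at 4.82 ± 0.43 (log2 ± SE, adjusted p = 9.44e-05), FBtr0076868 at 3.75 ± 0.70 (adjusted p = 0.00721) and FBtr0083756 at 2.33 ± 0.28 (adjusted p = 0.000534). With a pseudocount of 16 they were 2.505, 1.65 and 0.79 and were still called. FBtr0076868 was dim in controls at 8 h (5.29, 4.19 and 5.89) and in RasV12 glands at 18 h (4.69, 7.72 and 12.7). In RasV12 glands at 8 h it read 18.9, 14.0 and 61.4. FBtr0083756 read near the lowest intensities in all of these groups but the 18 h controls. The sizes of these 2 differences are therefore not settled. The higher count was 10 without RasV12 replicate 3 at 18 h, and the lower count 1 without RasV12 replicate 2 at 18 h.

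For torso-RNAi it was called for 1 member higher at 8 h and 2 lower, where 1.34% and 1.66% of all transcripts were. These were FBtr0083756 at 2.67 ± 0.28 (log2 ± SE, limma adjusted p = 0.000269), FBtr0086523 at -2.02 ± 0.50 (adjusted p = 0.0449) and FBtr0088195 at -1.66 ± 0.36 (adjusted p = 0.0233). The 2 lower calls became 0 without control replicate 1 at 18 h, control replicate 3 at 8 h or torso-RNAi replicate 3 at 18 h, and 4 without torso-RNAi replicate 2 at 8 h. They became 1 without control replicate 3, torso-RNAi replicate 1 or torso-RNAi replicate 2 at 18 h, or control replicate 2 or torso-RNAi replicate 3 at 8 h. The higher count was 2 without torso-RNAi replicate 1 or 2 at 8 h. FBtr0083756 reads near the lowest intensities in 5 of the 6 driver-cross groups, all but the 18 h controls, so the size of its differences is not settled. The lower calls rest on dim readings at 8 h too. FBtr0086523 read 12.3, 3.77 and 5.57 in controls and 6.04, 4.16 and 3.98 in torso-RNAi glands at 8 h. FBtr0088195 read 8.38, 9.35 and 9.59 in controls and 11.1, 10.6 and 5.65 in torso-RNAi glands at 8 h. With a pseudocount of 16 the torso-RNAi differences were 0.85, -1.32 and -0.80 and were still called. The shared 18 h controls enter both effects.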

How the results depend on the processing

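Of 314 recomputed counts other than those with 1 array left out, 240 stayed within 1.5 times and 74 did not. Many of these settings also change how many of all transcripts are called. Counts of members given below without that share therefore do not show a change particular to the members. The 36 named changes had 708 alternatives, of which 661 kept the call, 47 lost it and 0 reversed. Where a construction does not show it (fewer transcripts tested, other members, fewer arrays), the cause was not tested.

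Leaving out the dimmest 25% of transcripts kept 55 members in the test and removed 61. The higher and lower counts in RasV12 against control were then 2 and 2 at 18 h, and the higher count 7 at 8 h. Torso-RNAi against control had 14 higher and 1 lower at 18 h and 2 lower at 8 h. Torso-RNAi against RasV12 had 14 higher and 1 lower at 18 h and 4 lower at 8 h. From 18 to 8 h, 0 rose and 9 fell in controls (at an unadjusted p under 0.05 the unfiltered limma fit gave 2 and 32) and 17 fell in torso-RNAi. The effect differences became 1 higher for RasV12, and 0 higher and 0 lower for torso-RNAi (unfiltered and unadjusted, 7 and 19).

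With the compared groups alone, RasV12 against control had 6 higher at 18 h, torso-RNAi against control 13 lower at 18 h, and torso-RNAi against RasV12 15 higher and 5 lower at 18 h. From 18 to 8 h, 28 fell in controls and 1 rose in torso-RNAi, and the torso-RNAi effect was higher for 7. Array weights gave 15 lower in torso-RNAi against control at 18 h, 4 higher in torso-RNAi against RasV12 at 8 h, and 31 falls in controls. Under weights the effect differences were 10 higher and 1 lower for RasV12 and 3 higher and 5 lower for torso-RNAi.

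A 2-fold minimum gave 6 higher in RasV12 against control at 18 h, 5 and 10 lower in torso-RNAi against RasV12 at 18 and 8 h, and 1 rise in controls. Over all 16637 transcripts those counts were 815, 1266, 1467 and 394. A pseudocount of 16 gave 4 lower in RasV12 against control and 5 lower in torso-RNAi against RasV12 at 18 h, 1 rise and 8 falls in controls and 6 falls in RasV12. Its effect differences were 5 higher for RasV12 and 2 higher and 5 lower for torso-RNAi. Centred arrays gave 5 lower in torso-RNAi against RasV12 at 18 h. A second quantile normalization gave 5 rises in torso-RNAi and 1 lower torso-RNAi effect.

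A member threshold of 4 gave 184 members. Of these, 15 and 14 were lower in RasV12 against control at 18 and 8 h, 44 higher in torso-RNAi against control at 18 h, and 57 and 14 higher in torso-RNAi against RasV12 at 18 and 8 h. From 18 to 8 h 23 fell in RasV12 and 61 in torso-RNAi, and the RasV12 effect was higher for 5 and lower for 1. A threshold of 5 gave 87 members, of which 3 were lower in RasV12 against control at 8 h, 12 higher at 18 h and 2 lower at 8 h in torso-RNAi against control, and 13 and 4 higher in torso-RNAi against RasV12 at 18 and 8 h. From 18 to 8 h 0 of the 87 rose in controls, 6 fell in RasV12, 1 rose and 16 fell in torso-RNAi, and the torso-RNAi effect was lower for 0. Members chosen from centred wild-type arrays gave 36 higher in torso-RNAi against RasV12 at 18 h and 1 lower RasV12 effect. Changing the members left the fit unchanged, so the shares of all transcripts given with the main counts apply here too.

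Chosen after seeing the data, the removal of both high RasV12 arrays gave 19 lower in RasV12 against control and 5 lower in torso-RNAi against RasV12 at 18 h, 4 rises in RasV12 and 10 higher RasV12 effects. Removal of both torso-RNAi arrays numbered 1 gave 2 lower in torso-RNAi against control at 8 h, 4 lower in torso-RNAi against RasV12 at 18 h, and 2 higher and 1 lower torso-RNAi effects. The arrays of both removals were picked by the members raised on them, so these counts are partly built in.

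With each array left out in turn, RasV12 against control had 6 to 9 higher and 4 to 7 lower at 18 h, and 11 to 16 and 2 to 8 at 8 h. Torso-RNAi against control had 9 to 21 higher and 2 to 4 lower at 18 h, and 8 to 11 and 2 to 8 at 8 h. Torso-RNAi against RasV12 had 13 to 18 higher and 3 to 9 lower at 18 h, and 4 to 10 and 13 to 17 at 8 h. From 18 to 8 h, 1 to 2 rose and 5 to 13 fell in controls, 5 to 8 and 5 to 15 in RasV12, and 2 to 4 and 20 to 26 in torso-RNAi. The effect differences were 3 to 10 higher and 0 to 1 lower for RasV12, and 1 to 2 and 0 to 4 for torso-RNAi. The rule found 105 to 125 members.

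The replicate numbers were not taken as a pairing, since 1 of 27 same-number pairs had an r over 0.1 (range -0.133 to 0.145). In 2 of 9 comparisons every array correlated best with its own number. With the replicate block no count moved by more than 1.5 times. The falls in RasV12 from 18 to 8 h moved most, from 12 to 8, and RasV12 against control at 18 h had 5 lower in place of 7.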
